A study of Mus musculus with 8 samples.

Results

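Transcripts of 9 genes of the phagocyte NADPH oxidase and of related oxidant enzymes were followed in mouse dendritic cells that had engulfed ferroptotic tumor cells. The genes were taken by name from the mouse gene symbols of the count table: Cybb, Cyba, Ncf1, Ncf4, Rac2, Hvcn1, Nos2, Sod2 and Cat. They are 9 of 55487 genes in the table, each symbol matched 1 Ensembl identifier, and all 9 were among the 15411 genes that passed the filter on low counts. The first group (BMDC, n = 4 libraries) held untreated wild-type dendritic cells grown from bone marrow of C57BL/6J mice, 6 to 8 weeks old, for 10 days in 20 ng/ml GM-CSF. The second group (BMDC-fer, n = 4 libraries) held wild-type BMDC grown in the same way, co-cultured for 4 h with human Jurkat cells, an established T-cell leukemia line, that had been killed with 0.5 µM ML162 for 14 h. ML162 inhibits the lipid peroxide reductase GPX4 and so triggers ferroptosis. BMDC-fer were sorted for engulfed cargo, so uptake, co-culture and sorting came together in this group and cannot be told apart. The labels do not tie libraries to single mice, and the p-values measure the spread between these libraries, which the study describes as independently collected.

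The phagocyte NADPH oxidase moves electrons from cytosolic NADPH across the membrane to oxygen and so makes superoxide in the phagosome. Its membrane part, flavocytochrome b, is a dimer of the products of Cybb and Cyba, and it becomes active when the cytosolic subunits, among them those of Ncf1 and Ncf4, and the GTPase Rac join it. The proton channel encoded by Hvcn1 balances the charge that leaves with the electrons. In dendritic cells the oxidase limits acidification and proteolysis in the phagosome, which bears on antigen cross-presentation. Nos2 makes nitric oxide from arginine, Sod2 turns superoxide into hydrogen peroxide in mitochondria, and Cat, catalase, breaks hydrogen peroxide down, mainly in peroxisomes.

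The stretches just upstream of the transcription start are shown for 4 genes whose transcripts gave the contrasts described below: both chains of the flavocytochrome, one of which differed between groups in some libraries only, and the pair of enzymes Sod2 and Cat, whose differences lay in different libraries. Each is the last 150 bases before the RefSeq start in GRCm38.p6, written 5′ to 3′ on the gene's strand: chrX:9469325-9469474 (minus strand) for Cybb, chr8:122432941-122433090 (minus) for Cyba, chr17:13007689-13007838 (plus) for Sod2 and chr2:103485154-103485303 (minus) for Cat. Capitals mark matches, on either strand, to CCAAT, the CCAAT box, or to GGGCGG, the GC box recognised by Sp1, and no matches overlap.
Cybb: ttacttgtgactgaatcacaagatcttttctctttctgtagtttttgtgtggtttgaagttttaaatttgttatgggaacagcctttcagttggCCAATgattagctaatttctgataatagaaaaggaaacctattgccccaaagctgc
Cyba: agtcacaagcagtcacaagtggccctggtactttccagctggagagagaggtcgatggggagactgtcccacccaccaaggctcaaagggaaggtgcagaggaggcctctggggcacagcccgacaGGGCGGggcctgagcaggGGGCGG
Sod2: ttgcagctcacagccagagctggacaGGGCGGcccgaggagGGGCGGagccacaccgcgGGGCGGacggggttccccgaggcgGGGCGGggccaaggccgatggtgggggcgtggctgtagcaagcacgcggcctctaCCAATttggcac
Cat: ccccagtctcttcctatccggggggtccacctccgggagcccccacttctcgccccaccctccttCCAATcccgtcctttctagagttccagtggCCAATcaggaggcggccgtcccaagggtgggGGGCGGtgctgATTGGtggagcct

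The partner chains of the flavocytochrome shared neither motif in these windows. Cybb held 1 CCAAT match and no GGGCGG, and Cyba held 2 GGGCGG matches and no CCAAT. The Sod2 window held 4 GGGCGG matches and 1 CCAAT match, and the Cat window held 3 CCAAT matches and 1 GGGCGG match. CCAAT occurred in 24.5% of 32851 RefSeq windows of the same length and GGGCGG in 28.6%. GAGGAA, 1 form of a PU.1 site, occurred in 14.5% of windows, and TGACNNNGC, the core of an antioxidant response element, in 6.8%. Neither was found in the 5 matched windows, which include that of Ncf1 with 1 GGGCGG match. Other forms of a PU.1 site, among them those with GGAA but not GAGGAA, were not searched for. The matches given are matches of letters only. The RefSeq starts of Cybb, Sod2 and Cat lie inside the spans that GENCODE gives these genes. Ncf4, Rac2, Hvcn1 and Nos2 had no matched window.

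Total counts per library lay between 39326672 and 50532209, and a floor of 3 counts corresponded to 0.0607 to 0.0785 CPM (the counts of a gene relative to its library scaled by TMM factors). That floor reflects counting error alone, as sequencing reads lacking molecular identifiers can be copies. Replicates 1 and 2 of either group clustered away from replicates 3 and 4, along 2 principal components that took 39.9% and 38.4% of the variance. The labels do not say what these sets of replicates are, so values within each set stand beside the pooled ones. The labelled cell type was checked first: Itgax, which encodes CD11c, lay between 787 and 1407 CPM in BMDC, and between 748 and 1317 in BMDC-fer. Flt3 was low and lower still after uptake, at 3.43 to 4.47 and 0.122 to 0.445 CPM, and Zbtb46 lay at 6.29 to 42.7 and 1.62 to 11.5 CPM. Summed over 14 dendritic cell markers, the level was 5076 to 11426 CPM in BMDC and 2286 to 5228 in BMDC-fer. By the rule given below, 3 of the 14 were called, all lower, or 9 lower and 1 higher with the replicate number as a block. Beside this, 9.38% of all tested genes were called, and 13.0% with that block. In bulk libraries fewer cells of a type and less RNA per cell cannot be told apart.

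Hvcn1 was the 1 gene of the 9 that was called between BMDC-fer and BMDC, meaning a false discovery rate (FDR, the Benjamini-Hochberg adjusted p of edgeR's quasi-likelihood test) no higher than 0.05 together with a log2 fold change of at least 0.58 in either direction. Of all tested genes 9.38% were called, 3.47% as higher and 5.91% as lower (1.95% and 7.65% with libraries scaled by total counts only), so 1 of 9 (11.1%) is near the background. The fitted log2 fold change was above 0 for 8 of the 9 genes, Rac2 being the exception, with a median of 0.48, and for 7 of the 9 with total counts only, where Ncf1 was at -0.077. Over all tested genes it was above 0 for 7718 and below 0 for 7693, with a median of 0.00069. The libraries of the groups did not overlap for 4 of the 9 genes (Cyba, Ncf4, Hvcn1 and Cat, all higher in BMDC-fer), where 22.9% of all tested genes did not overlap and 11.3% of all tested genes did so with BMDC-fer higher.

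**Figure D1:**
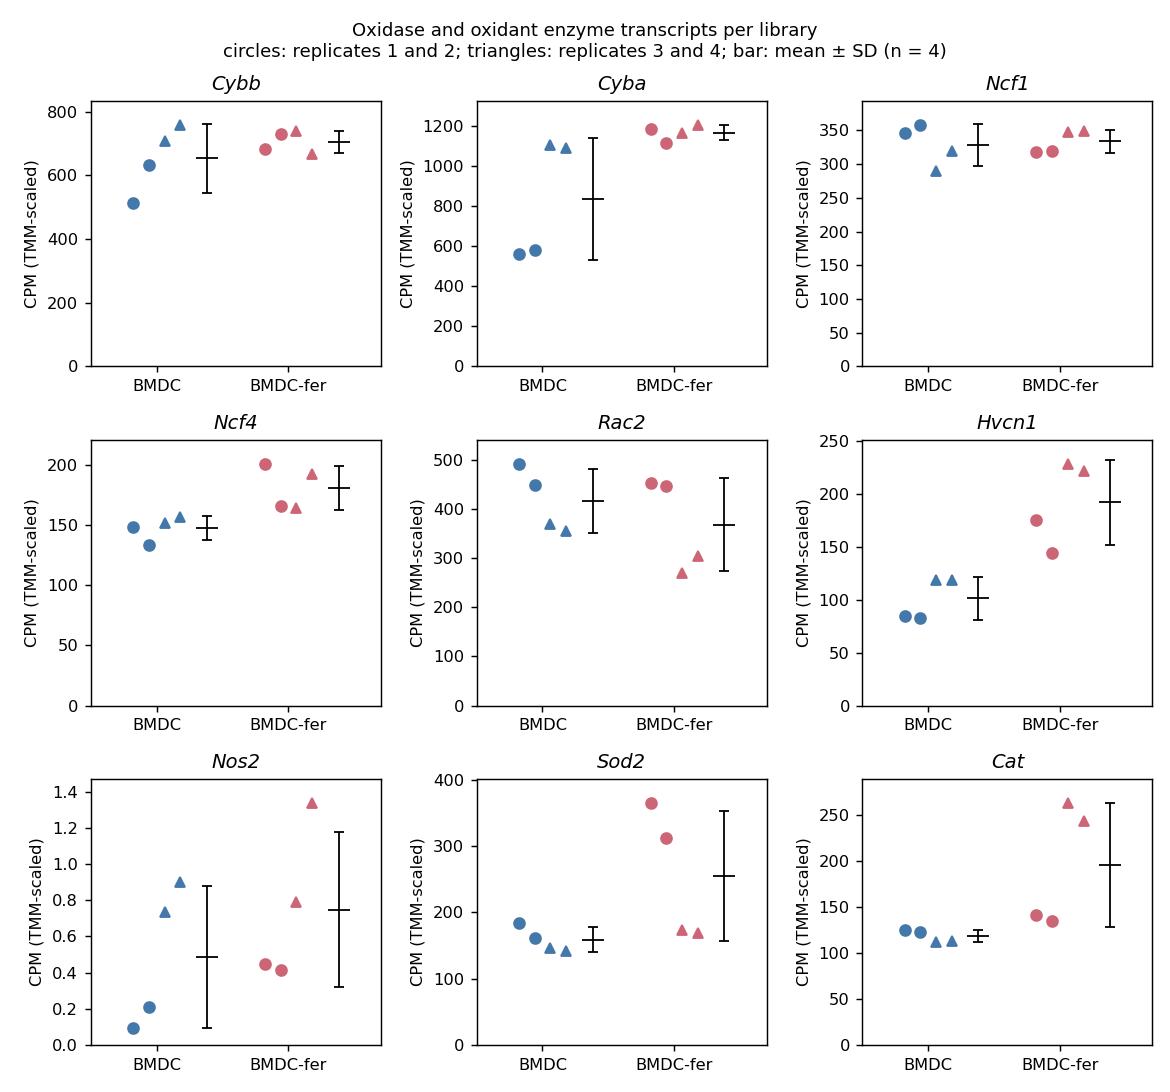
CPM of each of the 9 genes (vertical axes, from 0) in the 4 BMDC libraries (blue) and the 4 BMDC-fer libraries (red), with circles for replicates 1 and 2, triangles for replicates 3 and 4, and bars for the mean ± SD (n = 4). Hvcn1 was higher in every BMDC-fer library, the BMDC libraries of Cyba split by replicate set, Sod2 was highest in BMDC-fer replicates 1 and 2, and Cat was highest in BMDC-fer replicates 3 and 4.

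Cybb (chromosome X, 9435252 to 9487771, minus strand, GENCODE M21 annotation of GRCm38) encodes gp91phox, the catalytic chain that carries the flavin and the hemes. Replicates 1 to 4 had 512, 633, 709 and 758 CPM in the untreated cells and 682, 730.0, 739 and 667 CPM after uptake. The BMDC-fer libraries all lay inside the range of the BMDC libraries, whose lowest value was replicate 1. Group means were 653 ± 107 for BMDC against 704 ± 35.5 CPM for BMDC-fer (SD, n = 4 each). The log2 fold change was 0.11 (SE 0.14, FDR by edgeR 0.631). Replicates 1 and 2 gave 0.30 and replicates 3 and 4 gave -0.062, a difference with an edgeR FDR of 0.104.

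Cyba (chromosome 8, 122424776 to 122432930, minus strand) encodes p22phox, the smaller chain that stabilises gp91phox and docks the cytosolic subunits. Its level was 560 and 579 CPM in BMDC replicates 1 and 2, 1105.5 and 1090.0 CPM in BMDC replicates 3 and 4, and 1184, 1114, 1162 and 1204 CPM in BMDC-fer replicates 1 to 4. The untreated libraries fell into low and high values by replicate set, while the BMDC-fer libraries were alike and all above the highest untreated one. Group means were 834 ± 305 for BMDC against 1166 ± 38.8 CPM for BMDC-fer (SD, n = 4 each), and the pooled log2 fold change of 0.48 (SE 0.25) was not called (FDR by edgeR 0.220). Within replicates 1 and 2 the log2 fold change was 1.01 (FDR by edgeR 7.44e-05), and within replicates 3 and 4 it was 0.11 (FDR by edgeR 0.284). The effect in replicates 3 and 4 minus that in replicates 1 and 2 was -0.90 on the log2 scale (edgeR interaction term, FDR 0.000532).

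Among the cytosolic subunits, Ncf1 (chromosome 5, 134220053 to 134229625, minus strand) encodes p47phox, the organizer that bridges the cytosolic complex to p22phox. Per library, replicates 1 to 4 had 347, 358, 289 and 319.7 CPM in the untreated cells and 318, 320.0, 348 and 349 CPM after uptake. The groups overlapped, and the sets moved in opposite directions: BMDC-fer replicates 1 and 2 lay below, and BMDC-fer replicates 3 and 4 above, the BMDC libraries of the same set. The pooled log2 fold change was 0.023 (SE 0.11, FDR by edgeR 0.901), made up of -0.14 in the first set (replicates 1 and 2) and 0.19 in the second (replicates 3 and 4). These effects differed by 0.34 (edgeR interaction term, FDR 0.0377). Exons of Ncf1 overlap those of Gtf2ird2 on the other strand by 408 bases, and 8.15% of its 50-base words also occur elsewhere in the transcripts. Gtf2ird2 itself lay between 15.5 and 21.8 CPM in all libraries.

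Ncf4 (chromosome 15, 78244801 to 78262580, plus strand) encodes p40phox, the subunit that binds a phosphoinositide of the phagosome membrane and sustains the oxidase there. Replicates 1 to 4 had 148, 133, 151 and 156 CPM in the untreated cells and 200.3, 166, 164 and 192 CPM after uptake. Every BMDC-fer library lay above every BMDC library, by a narrow margin in BMDC-fer replicates 2 and 3. Group means were 147 ± 9.96 for BMDC against 181 ± 18.4 CPM for BMDC-fer (SD, n = 4 each), and the log2 fold change of 0.30 (SE 0.11) did not pass the test (FDR by edgeR 0.105). The sets gave 0.38 and 0.21, and their difference did not pass the test (FDR by edgeR 0.446).

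Rac2 (chromosome 15, 78559167 to 78572783, minus strand) encodes the Rac GTPase of blood cells that switches the assembled oxidase on, and it was the 1 gene of the 9 with a fitted fold change below 0. Per library, replicates 1 to 4 had 491, 448, 369 and 356 CPM in the untreated cells and 452, 447, 269 and 304 CPM after uptake. The groups overlapped, since replicates 1 and 2 were high in both groups, but each BMDC-fer library was below the BMDC library of the same number. The log2 fold change was -0.18 (SE 0.20, FDR by edgeR 0.586). Replicates 1 and 2 gave -0.062 and replicates 3 and 4 gave -0.34 (FDR by edgeR 0.0108 in the latter set, under the fold threshold), and the difference between the sets did not pass the test (FDR by edgeR 0.111).

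Rac1, the Rac found in most cells, is not among the 9 genes and is given for its role. It had a log2 fold change of -0.33 with an edgeR FDR of 0.0509. Of the 6 genes Cybb, Cyba, Ncf1, Ncf4, Rac1 and Rac2, edgeR called 0, 2 (Ncf4 and Rac1) had an unadjusted p below 0.05, and DESeq2 called 0.

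Hvcn1 (chromosome 5, 122206804 to 122242297, plus strand) encodes the voltage-gated proton channel that carries the compensating protons into the phagosome, and it was higher in BMDC-fer than in BMDC by about the same factor in both replicate sets. Replicates 1 to 4 had 85.0, 82.4, 119 and 119 CPM in the untreated cells and 175, 144, 228 and 221 CPM after uptake. The lowest BMDC-fer library, replicate 2, lay above the highest BMDC library, and replicates 3 and 4 were above replicates 1 and 2 in both groups. Group means were 101 ± 20.3 for BMDC against 192 ± 39.8 CPM for BMDC-fer (SD, n = 4 each), with a fitted log2 fold change of 0.92 (SE 0.19, FDR by edgeR 0.0211). It was 0.93 in replicates 1 and 2 (FDR by edgeR 0.000207) and 0.92 in replicates 3 and 4 (FDR by edgeR 8.06e-05), and the interaction term was -0.0093 (FDR by edgeR 0.963). All 4 same-numbered pairs had the higher value in BMDC-fer.

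The call of Hvcn1 was lost without BMDC-fer replicate 3 (log2 fold change 0.83, FDR by edgeR 0.0547) and without BMDC-fer replicate 4 (0.85, FDR by edgeR 0.0610), and in a test against the fold threshold itself (FDR by edgeR 0.270). Of all tested genes, 5.51%, 3.58% and 1.46% were called in these 3 settings, and over all 20 alternatives the FDR of Hvcn1 ran from 8.06e-05 to 0.270. The gene shares 52.1% of its 50-base words with Tctn1 on the other strand, whose exons overlap it by 1574 bases, and whether strand was used in counting is not given in the sources used here. Tctn1 itself lay between 5.18 and 7.75 CPM in BMDC, and between 5.39 and 7.51 CPM in BMDC-fer. Those ranges overlap, and both are below every CPM value of Hvcn1. Over the 8 libraries, among 11451 tested genes averaging 100 counts or more, the centred log2 profiles most like that of Hvcn1 were those of Fam129b and Slc48a1. Their root mean square differences from it were 0.0838 and 0.112, where the profile of Hvcn1 itself had a root mean square of 0.529 about its mean. Slc48a1 encodes a heme transporter of endosomal membranes. The log2 fold changes were 0.82 for Fam129b and 0.85 for Slc48a1. Values near that of Hvcn1 follow from the choice of these genes by likeness to its profile in the same libraries.

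Nos2 (chromosome 11, 78920787 to 78960254, plus strand), the inducible nitric oxide synthase, was near the bottom of the measured range in every library. It had 4, 10, 31 and 36 counts in BMDC replicates 1 to 4 and 22, 17, 33 and 51 counts in BMDC-fer replicates 1 to 4, which is 0.0922, 0.211, 0.733 and 0.898 CPM in BMDC and 0.445, 0.416, 0.791 and 1.33 CPM in BMDC-fer. Replicates 3 and 4 were higher than replicates 1 and 2 in both groups, and the groups overlapped. The log2 fold change was 0.63 (SE 0.67, FDR by edgeR 0.562). Single libraries moved it widely, to 0.20 without BMDC-fer replicate 4, 0.29 without BMDC replicate 1, 0.38 without BMDC replicate 2 and 1.11 without BMDC replicate 4. It was 1.47 in replicates 1 and 2 (SE 0.50, FDR by edgeR 0.0427), resting on between 4 and 22 counts a library, and 0.38 in replicates 3 and 4. The difference between the sets did not pass the test (FDR by edgeR 0.199).

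Sod2 (chromosome 17, 13006846 to 13040063, plus strand), the manganese superoxide dismutase of mitochondria, differed between the groups by close to 1 on the log2 scale in replicates 1 and 2 and by less in replicates 3 and 4. Per library, replicates 1 to 4 had 183, 162, 146.5 and 141 CPM in the untreated cells and 364, 312, 174 and 169 CPM after uptake. BMDC-fer replicates 1 and 2 stood well above all other libraries, and BMDC-fer replicates 3 and 4 lay within the range of the untreated ones. Group means were 158 ± 18.8 for BMDC against 255 ± 98.5 CPM for BMDC-fer (SD, n = 4 each), and the pooled log2 fold change of 0.69 (SE 0.26) was not called (FDR by edgeR 0.114). It was 0.97 in replicates 1 and 2 (FDR by edgeR 0.000183) and 0.25 in replicates 3 and 4 (FDR by edgeR 0.0541), a difference of -0.72 (edgeR interaction term, FDR 0.00376). With the set as a covariate the edgeR FDR was 0.0179 and the gene was called, within 0.000183 to 0.864 over 20 alternatives.

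Cat (chromosome 2, 103453849 to 103485160, minus strand), catalase, showed the opposite split, with the larger difference in replicates 3 and 4. Replicates 1 to 4 had 125, 123, 112 and 113 CPM in the untreated cells and 141, 135, 263 and 244 CPM after uptake. The untreated libraries were alike, every BMDC-fer library was above them, and BMDC-fer replicates 3 and 4 were far above the other BMDC-fer libraries. Group means were 118 ± 6.78 for BMDC against 196 ± 67.2 CPM for BMDC-fer (SD, n = 4 each), with a fitted log2 fold change of 0.73 (SE 0.23, FDR by edgeR 0.0700). Replicates 1 and 2 gave 0.15 and replicates 3 and 4 gave 1.17 (FDR by edgeR 8.38e-06 in the latter set), a difference of 1.02 (edgeR interaction term, FDR 0.000205). Cat was called by DESeq2 (FDR 0.0291), which called 13.3% of tested genes, and by edgeR with the set as a covariate (FDR 0.0327), which called 18.3%, and over 20 alternatives its FDR ran from 8.38e-06 to 0.736.

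**Figure D2:**
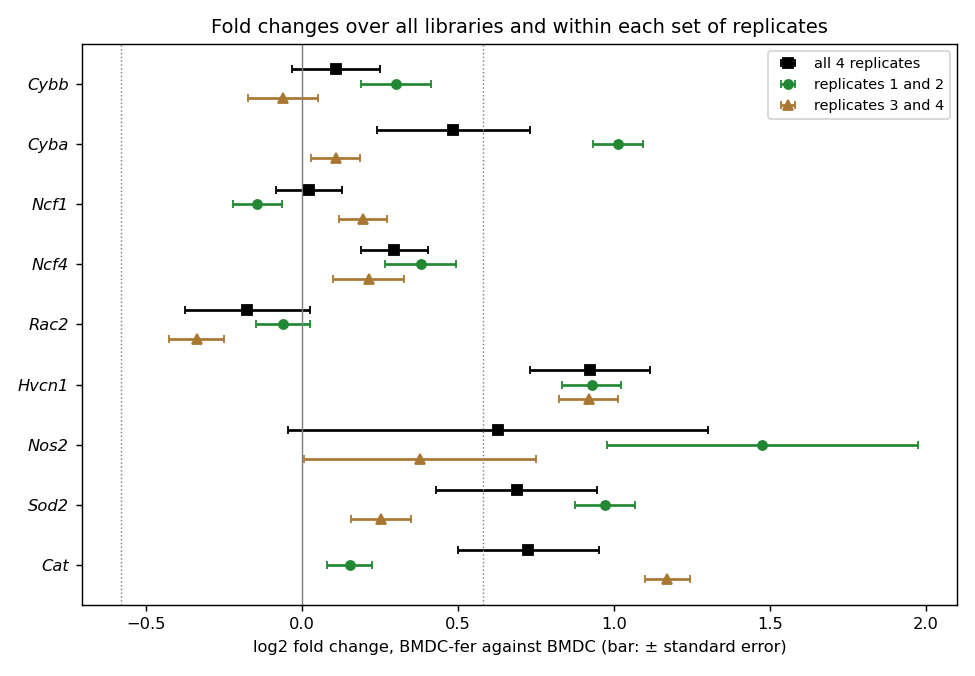
log2 fold changes of BMDC-fer against BMDC (horizontal axis, bars ± standard error) for the 9 genes over all 4 replicates (black squares), replicates 1 and 2 (green circles) and replicates 3 and 4 (brown triangles), with dotted lines at the fold threshold of 0.58 in either direction. The 3 estimates of Hvcn1 lie at 0.92 to 0.93, while those of Cyba and Sod2 are larger in replicates 1 and 2 and that of Cat is larger in replicates 3 and 4.

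Across the sets, the effect differed by the interaction test for 4 of the 9 genes, Cyba, Ncf1, Sod2 and Cat, which is 44.4% against 37.8% of all tested genes, so a difference between sets was common over the transcriptome. Cyba, Hvcn1, Nos2 and Sod2 were called in replicates 1 and 2, where 22.3% of tested genes were called. Cat and Hvcn1 were called in replicates 3 and 4, where 33.0% were. Hvcn1 was thus called in each set, but both contrasts come from a joint fit with a shared error estimate and are not separate tests. The sets were seen in these data and rest on 2 libraries a group, and what separates them was not tested.

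Set against gene length, the chains of the oxidase were far from equal. In CPM per kilobase of merged exons, Cyba stood at 803 ± 293 in BMDC, above Rac2 at 134 ± 20.8, Cybb at 112 ± 18.4, Ncf1 at 89.7 ± 8.36 and Ncf4 at 72.9 ± 4.93 (SD, n = 4 each). The enzymes and the channel followed, with Cat at 45.3, Hvcn1 at 28.4, Sod2 at 15.8 and Nos2 at 0.110. Rac2 and Cybb, and Cybb and Ncf1, had overlapping ranges over the BMDC libraries, and the other neighbours in this order did not overlap. In BMDC-fer the order was Cyba at 1122, Cybb at 121, Rac2 at 119, Ncf1 at 91.1, Ncf4 at 89.4, Cat at 74.9, Hvcn1 at 53.8, Sod2 at 25.5 and Nos2 at 0.169 CPM per kilobase. There every neighbouring pair from Cybb down to Hvcn1 overlapped. Among 15397 tested genes with a length, Cyba was at the 99.6th percentile in BMDC and Nos2 at percentile 3.96. The order and the overlaps of close neighbours depended on the length used. Over the longest coding transcript, Cybb (137) stood beside Rac2 (137) in BMDC. By that length Ncf1 also overlapped Ncf4 in BMDC, and Hvcn1 overlapped Sod2. In BMDC-fer, Ncf4 then stood above Rac2 and Ncf1.

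Within a library, the ratio of counts of 2 genes does not depend on the scaling of libraries. The log2 ratio of Cybb to Cyba stood at -0.13, 0.13, -0.64 and -0.52 in the untreated replicates 1 to 4 and at -0.80, -0.61, -0.65 and -0.85 in BMDC-fer. The chains of the flavocytochrome were nearest to equal counts in BMDC replicates 1 and 2, and BMDC replicates 3 and 4 lay near or inside the range of BMDC-fer. The mean difference was -0.44 (exact permutation test, two-sided p = 0.0571, Benjamini-Hochberg adjusted over the 3 ratios p = 0.0857). Replicates 1 and 2 gave -0.70 and replicates 3 and 4 gave -0.17.

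The log2 ratio of Sod2 to Sod1, the mitochondrial against the cytosolic dismutase, stood at 0.62, 0.72, 0.30 and 0.43 in the untreated replicates 1 to 4 and at 1.55, 1.53, 0.90 and 0.82 in BMDC-fer. Every BMDC-fer library lay above every BMDC library, also in replicates 3 and 4. The mean difference was 0.68, made up of 0.87 for replicates 1 and 2 and 0.49 for the other set. The exact permutation test gave a two-sided p of 0.0286, the smallest that 4 against 4 allows, and an adjusted p of 0.0857. Sod1 itself had a log2 fold change of -0.067 (FDR by edgeR 0.743).

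Nos2 and Arg1, whose products compete for arginine, stood far apart: their log2 ratio was -8.53 ± 1.03 in BMDC and -8.10 ± 1.00 in BMDC-fer (SD, n = 4 each). The mean difference of 0.44 did not pass the exact permutation test (two-sided p = 0.514, adjusted p = 0.514) and was -0.059 without BMDC-fer replicate 1. Arg1 had 15.2, 69.1, 530 and 529 CPM in untreated replicates 1 to 4 and 44.5, 157, 356 and 476 CPM in the matching BMDC-fer replicates, so it too was higher in replicates 3 and 4 of both groups. Its log2 fold change was -0.14 (FDR by edgeR 0.937), and its fitted values had opposite signs in the sets: replicates 1 and 2 gave 1.26 while replicates 3 and 4 gave -0.35, a difference that did not pass the test (interaction FDR by edgeR 0.202). With pairs of the same number as blocks, the exact sign-flip p was 0.125, 0.125 and 0.25 for Cybb to Cyba, Sod2 to Sod1 and Nos2 to Arg1, and 0.125 is the smallest that 4 pairs allow.

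**Figure D3:**
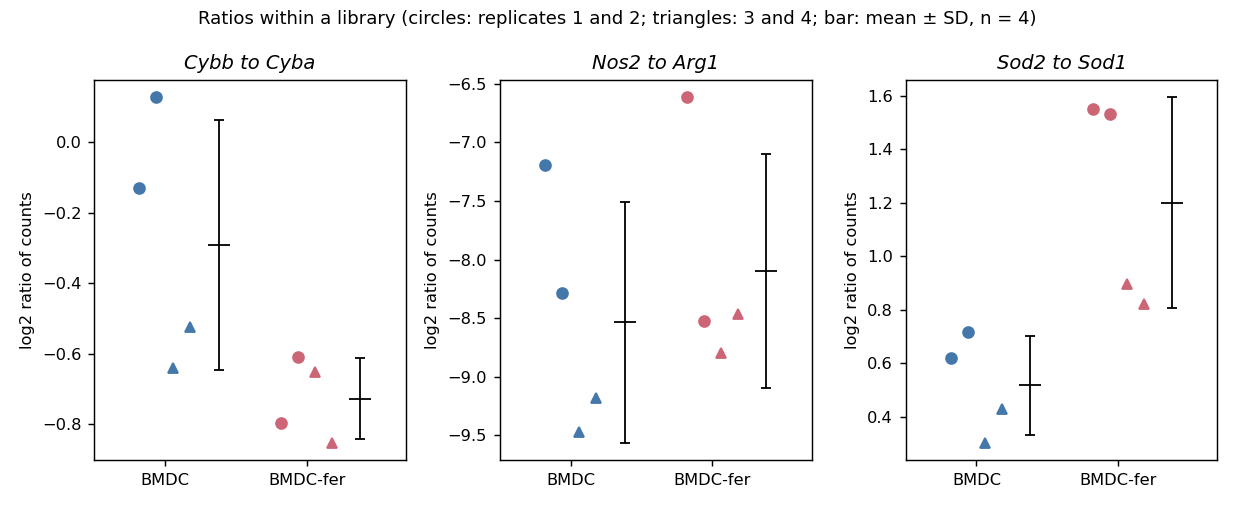
log2 ratio of counts within each library (vertical axes, which do not start at 0) for Cybb to Cyba, Nos2 to Arg1 and Sod2 to Sod1, in BMDC (blue) and BMDC-fer (red), with circles for replicates 1 and 2, triangles for replicates 3 and 4, and bars for the mean ± SD (n = 4). Sod2 to Sod1 is higher in all 4 BMDC-fer libraries, and Cybb to Cyba is highest in BMDC replicates 1 and 2.

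Around the 9 genes, 75 further genes of 5 pathway lists were counted, of which 60 were tested, 2 were called higher and 5 lower, 11.7% in all beside the 9.38% of all tested genes. Among 18 partners and regulators of the oxidase, 4 fell and 0 rose, with a median log2 fold change of -0.32. Rab27a, a GTPase of vesicle transport that delivers the oxidase to phagosomes in dendritic cells, fell from 15.1 ± 2.72 to 6.76 ± 0.789 CPM (log2 fold change -1.16, FDR by edgeR 0.00664). Pik3cg, a phosphoinositide kinase upstream of the oxidase, fell from 119 ± 39.5 to 51.9 ± 4.27 CPM (-1.19, FDR by edgeR 0.0138). Prex1, an exchange factor that activates Rac, fell from 259.9 ± 64.5 to 157 ± 13.3 CPM (-0.72, FDR by edgeR 0.0338). S100a9, a calcium-binding protein of neutrophils and monocytes that helps to activate the oxidase, had 78.3, 14, 87.1 and 20.1 CPM in untreated replicates 1 to 4 and 9.79, 0.661, 1.44 and 3.04 CPM in the matching BMDC-fer replicates (log2 fold change -3.73, FDR by edgeR 0.0359). The call of Rab27a held in all 8 fits that left out 1 library, and that of Pik3cg was lost in 1, without BMDC-fer replicate 4 (FDR by edgeR 0.0535). That of Prex1 was lost in 6, without BMDC replicate 1 or 2 or any BMDC-fer replicate (FDR by edgeR 0.0603 to 0.0978), and that of S100a9 in 5, without BMDC replicate 1 or 3 or BMDC-fer replicate 2, 3 or 4 (0.0612 to 0.105).

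Of the other NADPH oxidases and their partners, 1 of 9 was tested. That gene, Noxo1, had a log2 fold change of -0.56 and was not called (edgeR called 0, 0 had an unadjusted p below 0.05, and DESeq2 called 0). Nox3, Nox4, Noxa1, Duox1, Duox2, Duoxa1 and Duoxa2 had at most 2 counts in any library, so their transcripts were not detectable above the floor of 3 counts. Nox1 had between 0 and 19 counts.

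In the arginine and nitric oxide list, 1 of 12 tested genes (8.33%) fell and 0 rose. Of all tested genes 9.38% were called, 5.91% as lower, so this is near the background. Slc7a1, a transporter of arginine and other cationic amino acids, fell from 66.6 ± 19.3 to 30.2 ± 9.07 CPM (SD, n = 4 each; log2 fold change -1.14, FDR by edgeR 0.0296). With the replicate number as a block its call was lost (FDR by edgeR 0.0650), and it was also lost without BMDC replicate 3 or 4 and without BMDC-fer replicate 3 or 4 (0.0700 to 0.0831, and 2.76e-06 to 0.213 over 20 alternatives). Nos1 had at most 2 counts and Nos3 at most 9 in any library. Among superoxide and peroxide enzymes 0 of 13 tested genes were called by edgeR, and 5 had an unadjusted p below 0.05. DESeq2, which called 13.3% of all genes it tested, called Prdx1 as higher and Epx and Mpo as lower. With the replicate block, under which 13.0% of all tested genes were called, edgeR also called Prdx1, Mpo and, among the oxidase partners, S100a8.

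Catalase works largely in peroxisomes, and 2 of 16 peroxisome genes (12.5%) rose while 0 fell, beside 3.47% called higher and 9.38% called in all among the tested genes. With total counts only, 1 of the 16 rose, beside 1.95% of the tested genes. Abcd3, a transporter of the peroxisome membrane, was 24, 28.9, 35.9 and 34.7 CPM in BMDC and 43.1, 47.0, 55.8 and 53.6 CPM in BMDC-fer replicates 1 to 4 (log2 fold change 0.69, FDR by edgeR 0.0253). Every BMDC-fer library lay above every BMDC library. The median log2 fold change of the 16 was 0.053. Without 1 library, the call of Abcd3 was lost in 3 of 8 fits (BMDC-fer replicates 2, 3 and 4, FDR by edgeR 0.0517 to 0.0742).

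**Figure D4:**
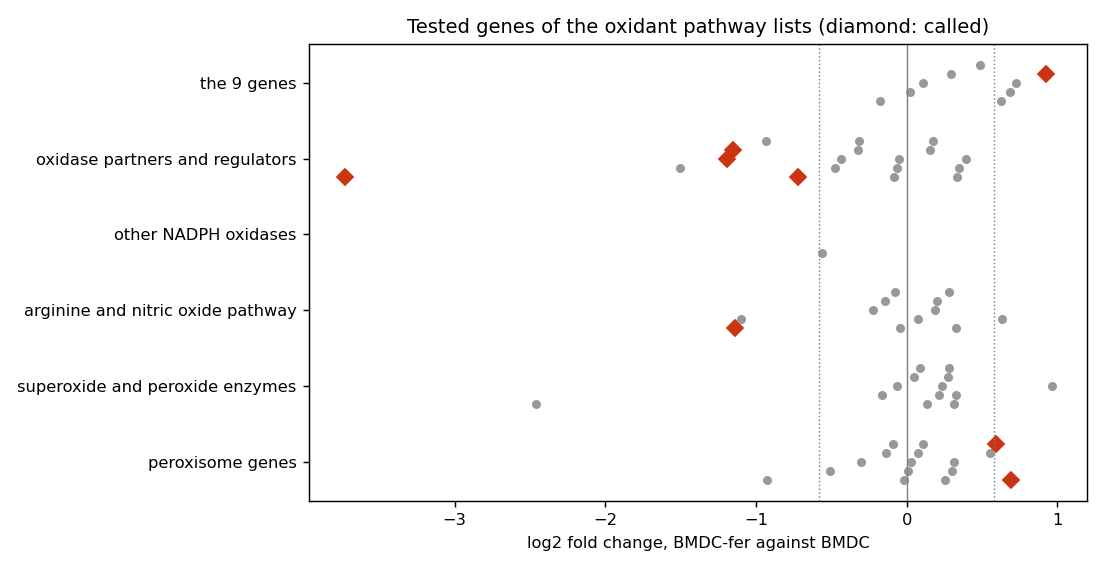
log2 fold change of BMDC-fer against BMDC (horizontal axis) for every tested gene among the 9 genes and the 5 pathway lists, with red diamonds for called genes, grey points for the others and dotted lines at the fold threshold of 0.58 in either direction. Of the called genes, 4 oxidase partners and 1 gene of the arginine list lie below 0, and Hvcn1 and 2 peroxisome genes lie above 0.

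Several of the 9 genes are also expressed by neutrophils and macrophages, so markers of other cells stand beside these results. Of 14 neutrophil markers 6 were called, all lower (10 with the replicate block), beside 5.91% of all tested genes called lower (8.13% with the block). S100a8 and S100a9 belong to this list as well as to that of the oxidase partners. Ly6g lay between 0.316 and 1.92 CPM in BMDC, and between 0.0245 and 0.288 CPM in BMDC-fer, and Elane between 0.253 and 1.99 and between 0 and 0.168 CPM. The sum of the list, in which Mmp8 is the largest term, was 625 to 1266 CPM in BMDC and 751 to 1473 in BMDC-fer. Of the oxidase subunit and Rac genes among the 9, Cybb, Cyba, Ncf1 and Ncf4 had fitted fold changes above 0 and Rac2 one below 0. All of these were without a call in the pooled edgeR fit, and the signs of Cybb and Ncf1 changed in some alternatives. The part of neutrophils in the results was not tested.

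The 12 macrophage markers, of which 11 were tested and Vsig4 had at most 3 counts everywhere, summed to 1464 to 2824 CPM in BMDC and 1700.0 to 3924 in BMDC-fer, with 1 called, Adgre1, which was lower. The monocyte markers summed to 230.1 to 428 CPM in BMDC and 176 to 298 in BMDC-fer. Of these 6, edgeR called 0 (2 had an unadjusted p below 0.05). DESeq2 called 2 as lower, where it called 8.4% of all genes it tested as lower. Mast cell and basophil markers summed to 34.1 to 65.4 CPM in BMDC and 14.6 to 33.1 in BMDC-fer, eosinophil markers to 30.4 to 43.1 and 16.6 to 24.6 CPM, and B-lineage markers to at most 1.47 CPM. The 12 T-lineage markers, which Jurkat cells could also supply, summed to 40.5 to 47.2 CPM in BMDC and 35.7 to 56.9 in BMDC-fer. Of them, Bcl11b and Rag1 had at most 3 counts everywhere, Cd3e had at most 6 counts in any library, and 2 of 5 tested were called, both lower. Over all tested genes 5.91% were called lower. Human reads that could map to mouse genes were not tested for.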

How the data were processed

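Mouse transcripts were measured by RNA sequencing in 4 BMDC and 4 BMDC-fer libraries. The authors aligned the reads using HISAT2, assigned them to genes using featureCounts and deposited raw counts, used here without change. Besides these tools, the submitters' processing notes name CASAVA, DESeq2 and mm10. Which gene annotation was used, and how strand and multi-mapping reads were treated, is not given in the sources used here. Symbols came from GENCODE M21 (GRCm38), for 55141 of 55487 identifiers.

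edgeR 4.0.16 under R 4.3.3 was used on these counts. Genes were kept by filterByExpr at a minimum count of 10, or 0.236 CPM, which left 15411. After TMM scaling, all 8 libraries entered quasi-likelihood tests with Benjamini-Hochberg adjustment over all tested genes, and the thresholds of 0.05 and 0.58 are those of the study's methods. Ratios within a library (0.5 added to each count) were tested by exact permutation of the libraries, two-sided. The edgeR group, block and interaction tests and the DESeq2 group test were also tried on simulated counts, and the ratio tests were not. Apart from planted effects, the simulated libraries differed only in depth and random spread, without the split into replicate sets seen here. The 9 genes, the lists and the tests were chosen with earlier results of these data known. Named outside the 9 were the called genes of the pathway lists (results of some list genes are not reported here) and the 2 genes with the profiles nearest to that of a called gene among the 9, while Rac1, Sod1 and Arg1 were named for their role and other genes after their values were seen. Alternatives were DESeq2 1.42.0, other scalings and filters, the replicate block, the set as a covariate, contrasts within each set, other uses of the threshold and each library left out. The within-set values came from a single edgeR fit to all 8 libraries, with a mean for each group and set. Scaling and error estimate were thus shared, and neither set was fitted by itself.

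Replicates were paired by the numbers they share in the labels. Same-numbered libraries deviated together from their group means, with r across genes of 0.445, 0.354, 0.313 and 0.342 for numbers 1 to 4. Libraries with different numbers of the same set reached 0.186 to 0.379, and in replicates 3 and 4 these values (0.342 and 0.379) were no lower than those of the same number, while libraries of different sets lay at -0.387 to -0.278. Genes are not independent samples. Promoter windows came from RefSeq (GRCm38.p6) and matched 5 of the 9 genes by symbol.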

Additional observations from a re-analysis of the deposited data

Results flagged for a closer look

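The effect of BMDC-fer against BMDC differed between replicates 3 and 4 and replicates 1 and 2, by the edgeR interaction term, for 4 of the 9 genes. The log2 effect in replicates 3 and 4 minus that in replicates 1 and 2 was -0.90 for Cyba, 0.34 for Ncf1, -0.72 for Sod2 and 1.02 for Cat. Of the called pathway genes, the same difference was 0.81 for Pik3cg and 0.57 for Prex1, which were less far below 0 in replicates 3 and 4, and -1.49 for Slc7a1, which was further below 0 there. Of all tested genes 37.8% passed this test, and what separates the sets was not tested.

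In 2 of 38 groups of 4 libraries, 1 library stood far from the others, where chance gives about 1.9. The first was Rab27a in BMDC-fer, with 7.93 CPM in replicate 3 and 6.25 to 6.51 in the others (the gap was 0.846 of the range, past Dixon's critical value). The second was the log2 ratio of Nos2 to Arg1 in BMDC-fer, at -6.61 in replicate 1 and -8.79 to -8.46 in the others (the gap was 0.85 of the range).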

How the results depend on the processing

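Of the 9 genes, edgeR called 1, DESeq2 2 and the fit with the set as covariate 3. The test against the fold threshold called 0 (1 at an unadjusted p below 0.05). The contrast within replicates 1 and 2 called 4, and that within replicates 3 and 4 called 2. Fits without 1 library called 0 to 1 (0 without BMDC-fer replicate 3 or 4). Of the pathway genes, edgeR called 7; in the same order the counts were 12, 13, 0 (7 at an unadjusted p below 0.05), 16, 12 and 1 to 8 (4 without BMDC replicate 3, and 3, 2 and 1 without BMDC-fer replicates 2, 3 and 4). With the replicate block, Hvcn1 was again the 1 called gene of the 9 (FDR by edgeR 0.00519) and 9 pathway genes were called. The block changed the calls of Slc7a1, Prdx1, Mpo and S100a8 and no other call of the 9 genes or the pathway lists.

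Alternatives were run for the 9 genes, Rac1, Sod1 and the called pathway genes named here, and among these the direction changed for Cybb, Ncf1 and Sod1. Cybb was at -0.062 in replicates 3 and 4. Ncf1 was at -0.077 with total counts only, -0.14 in replicates 1 and 2, and -0.033 to 0.074 without 1 library. Sod1 was at 0.093 in replicates 1 and 2. The cause was not tested. The difference between sets was called for Cyba, Ncf1, Sod2 and Cat in each of the 3 alternatives. Over all genes the calls numbered 1445, 2415 with DESeq2, 2000 with the block, 2815 with the covariate and 225 in the test against the threshold. They numbered 3435 and 5092 in the contrasts within the sets, and 565 to 1440 without 1 library. Of the calls, 37.0% were higher, and 20.3% with total counts only. A filter of at least 50 counts left out Nos2, whose low counts limit its precision.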
